A study of Mus musculus with 24 samples.

Results

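The subject is monomethylation of lysine 4 of histone H3 (H3K4me1) in mouse embryonic stem (ES) cells, compared between cells without Prdm16 (KO) and wild-type cells. It covers 4 of the 24 libraries of the study, chosen by antibody and stage from the sample titles, with 2 libraries of each genotype. The study used CUT&RUN, in which an antibody tethers a nuclease to chromatin and the released DNA is sequenced, with antibodies to H3K4me1, H3K4me2 and PRDM16, in ES cells and in embryoid bodies (EB) after 6 days of differentiation. All cells were of C57BL/6 background. The wild-type ES cells carried intact Prdm16, and the KO ES cells were labelled Prdm16 KO. Both were grown with LIF on Matrigel, without differentiation. The labels give neither the way in which the KO was made nor the number of clones. Whether the replicates were separate cultures is not stated, so each p-value below reflects a spread between libraries that may be technical.

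PRDM16 is a zinc finger protein with a PR domain, related to the SET domain of histone methyltransferases. It is known for roles in brown fat, blood stem cells, brain and craniofacial development. H3K4me1 is laid down mainly by the enzymes Kmt2c and Kmt2d and marks enhancers, whether active or primed, and the flanks of active gene starts. H3K4me2 lies over both enhancers and gene starts, so it gives a second reading of the same elements.

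The wild-type replicate 1 list held 15435 peaks and the wild-type replicate 2 list 12746. KO replicate 1 held 14945 peaks and KO replicate 2 held 13901. The genotypes overlapped in peak number (log2 KO over wild type 0.04, two-sided exact permutation p = 1.00, n = 2). With 2 libraries a genotype the smallest p of this test is 0.333, so no comparison over libraries here can pass 0.05. The lists covered 35.4 and 32.7 Mb in wild type and 35.7 and 37.1 Mb in KO. They give no read counts, so the depth is unknown. The gene body of Prdm16 (chr4:154316122-154637360) carried 6 and 4 wild-type H3K4me1 peaks and 7 and 6 KO peaks, and these do not check the KO. A list of 26 naive pluripotency genes had 7 and 10 members with a peak at a gene end (within 2500 bp) in the wild-type lists, and 10 and 5 in the KO lists. Fibroblast or feeder markers had 3 or 4 of 14 marked members in each library. H3K4me1 marks primed as well as active genes, so these counts do not identify the cells.

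Overlapping peaks of the 4 lists merged into 26140 regions. A peak in both wild-type lists and in neither KO list made a region wild-type-only, and there were 1129 of these, 4.32% of all regions. The reverse made a region KO-only, and there were 1241, 4.75% of all regions. The other 4 choices of 2 lists take 1 list of each genotype and are called mixed. They held 1056 regions (wild-type 1 with KO 1), 871 (wild-type 1 with KO 2), 604 (wild-type 2 with KO 1) and 618 (wild-type 2 with KO 2). Both single-genotype counts were above each mixed count, but each by less than 1.5 times the highest, and the wild-type-only count was the closer to it. When each list was cut to its 12746 highest scores, the counts were 1130 wild-type-only and 1069 KO-only against 642 to 785 mixed. All 4 lists shared 5425 regions, 20.8% of the total, and 10887 regions came from 1 list. The 2 wild-type lists shared 44.8% of the regions that either held, the 2 KO lists 45.0%, and pairs of unlike genotype 41.4 to 42.6%. Lists of 1 genotype were therefore only slightly more alike than lists of different genotype.

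**Figure D1:**
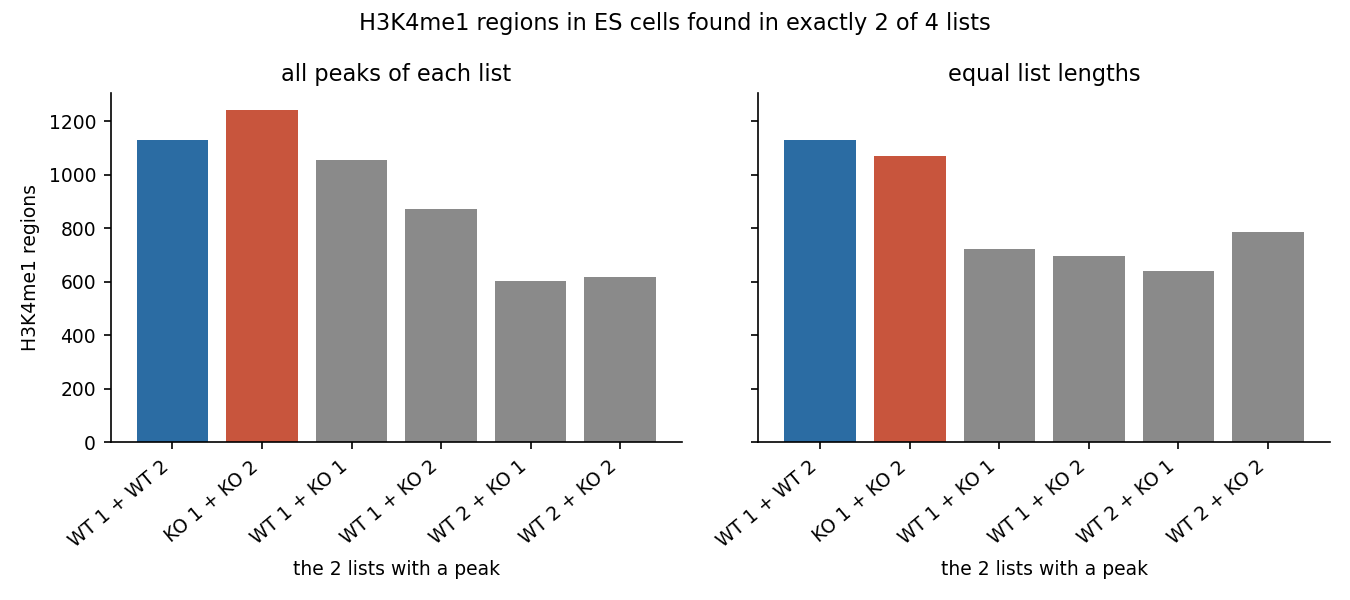
Number of merged H3K4me1 regions in ES cells with a peak in exactly 2 of the 4 lists, by choice of lists (WT, wild type), for all peaks (left) and with each list cut to the same length (right). The wild-type-only (blue) and KO-only (red) counts, 1129 and 1241 on the left, stand above the 4 mixed counts (grey) in both panels.

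The following promoters illustrate what kind of gene start lay inside regions of each class. They are those, 3 for each direction, whose regions ranked highest among regions that enclose a whole promoter sequence. Each run is the 250 bases before the gene start, 5′ to 3′ on the gene's strand, from RefSeq GRCm38.p6 (the mm10 coordinates), with every CpG in capitals. The wild-type-only promoters are P2ry2 (chr7:101011999-101012248, minus strand), Vstm2b (chr7:40899028-40899277, plus strand) and Flnc (chr6:29432903-29433152, plus strand).
P2ry2: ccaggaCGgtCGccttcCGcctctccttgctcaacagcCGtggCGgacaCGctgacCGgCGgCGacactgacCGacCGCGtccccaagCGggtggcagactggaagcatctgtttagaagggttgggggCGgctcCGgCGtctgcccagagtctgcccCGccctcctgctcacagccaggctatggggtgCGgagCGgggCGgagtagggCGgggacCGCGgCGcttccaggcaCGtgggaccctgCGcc
Vstm2b: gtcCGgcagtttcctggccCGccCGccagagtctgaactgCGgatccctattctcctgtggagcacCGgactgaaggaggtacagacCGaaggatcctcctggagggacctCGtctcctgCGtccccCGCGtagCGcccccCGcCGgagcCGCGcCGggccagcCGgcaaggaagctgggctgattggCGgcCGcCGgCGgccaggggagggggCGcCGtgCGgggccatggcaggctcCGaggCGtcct
Flnc: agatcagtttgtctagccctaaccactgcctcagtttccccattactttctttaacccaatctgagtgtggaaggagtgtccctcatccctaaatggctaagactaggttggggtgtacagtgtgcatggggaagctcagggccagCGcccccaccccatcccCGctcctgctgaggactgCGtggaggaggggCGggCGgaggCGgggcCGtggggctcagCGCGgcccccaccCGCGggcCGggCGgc
The KO-only promoters are Serpinb6c (chr13:33905192-33905441, minus strand), Blnk (chr19:40994222-40994471, minus strand) and Rslcan18 (chr13:67114029-67114278, minus strand).
Serpinb6c: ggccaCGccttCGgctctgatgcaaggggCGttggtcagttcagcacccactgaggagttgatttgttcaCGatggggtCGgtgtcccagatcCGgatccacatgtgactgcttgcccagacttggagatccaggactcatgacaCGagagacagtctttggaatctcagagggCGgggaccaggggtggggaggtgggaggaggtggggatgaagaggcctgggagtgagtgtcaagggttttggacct
Blnk: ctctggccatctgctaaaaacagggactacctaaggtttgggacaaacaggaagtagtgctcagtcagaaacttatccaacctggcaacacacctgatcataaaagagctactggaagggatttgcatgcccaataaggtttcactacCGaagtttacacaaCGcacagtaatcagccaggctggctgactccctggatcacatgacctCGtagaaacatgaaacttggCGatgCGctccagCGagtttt
Rslcan18: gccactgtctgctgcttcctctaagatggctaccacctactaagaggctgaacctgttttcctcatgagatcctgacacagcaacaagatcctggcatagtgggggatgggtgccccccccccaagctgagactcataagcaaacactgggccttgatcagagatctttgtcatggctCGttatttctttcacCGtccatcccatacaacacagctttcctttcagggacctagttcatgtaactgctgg
The 3 wild-type-only runs hold 26, 26 and 13 CpG, and the 3 KO-only runs hold 8, 6 and 2.

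Over all enclosed promoters, those above included, the difference had the same direction but was smaller. CpG were counted on 300 bases (250 before to 50 after the start) for the 17492 of 21887 protein-coding genes with a sequence. The next-ranked KO-only region enclosed promoters of Cers1 and Gdf1 with 22 CpG. The next wild-type-only region enclosed 2 of Cldn7 with 7 and 17, so the examples shown are not typical of every region. The motif searched was CG, which reads the same on both strands, and 95.4% of all promoters hold at least 1. The 105 promoters inside wild-type-only regions had a median of 17 CpG (quartiles 10 and 23). The 81 promoters inside KO-only regions had a median of 11 (quartiles 5 and 22). Promoters inside mixed regions had a median of 15, those inside regions of all 4 lists 14, and all promoters 13. The quartile ranges overlap broadly, and the lists chose the regions, so these medians are a description without a test.

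KO-only regions lay at gene ends less often than the other classes by their share. Within 2500 bp of either end of a protein-coding gene lay 22.9% of KO-only regions (95% Wilson interval 20.6 to 25.3), against 34.2% of wild-type-only regions (31.5 to 37.0) and 33.6% of mixed regions (32.0 to 35.3). The 4 mixed choices ranged singly from 32.8 to 34.6%, so the wild-type-only share lay within the range of the mixed choices and the KO-only share below it. Regions of all 4 lists had 28.8%. At gene starts the shares were 13.6% of KO-only, 23.4% of wild-type-only and 22.0% of mixed regions. Outside genes lay 36.3% of KO-only, 28.1% of wild-type-only and 30.0% of mixed regions, and 35.4% of regions of all 4 lists (34.1 to 36.7), within the KO-only interval of 33.7 to 39.1. The median distance to the nearest gene end was 17.97 kb for KO-only and 9.07 kb for wild-type-only regions. The intervals cover counting error over regions, not the spread between libraries. Over whole libraries, 29.9 and 30.8% of wild-type peaks and 27.6 and 28.0% of KO peaks lay at a gene end. The groups did not overlap (30.3 ± 0.596% against 27.8 ± 0.288%, SD, two-sided exact permutation p = 0.333, n = 2, the smallest possible).

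Regions of 1 genotype and mixed regions were both narrower than regions of all 4 lists. A region spans all its overlapping peaks, so its width tends to rise with the number of lists by construction. The median width was 2428 bp for wild-type-only and 2155 bp for KO-only regions. Mixed regions had 2121 bp and regions of all 4 lists 3644 bp. Few single-genotype regions were the edge of a peak that the other genotype also had. The nearest peak of the other genotype lay at a median of 15.7 kb from a wild-type-only and 18.9 kb from a KO-only region, and within 1000 bp for 33 and 22 of them.

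**Figure D2:**
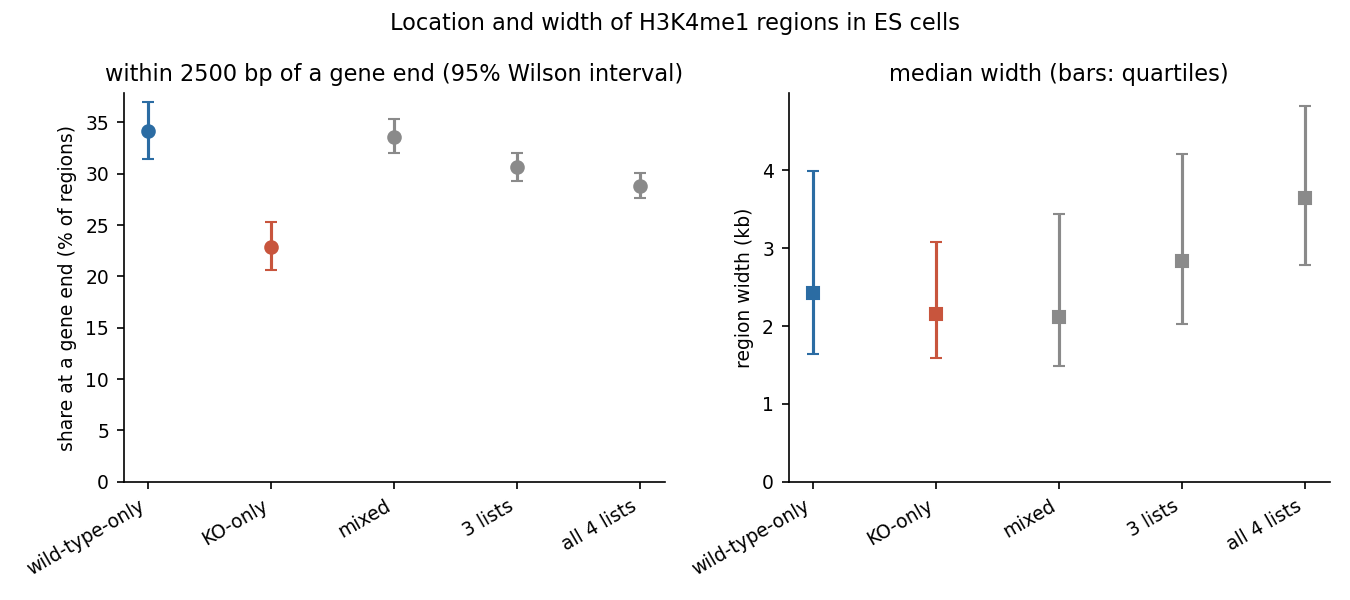
Left, share of H3K4me1 regions within 2500 bp of a protein-coding gene end, by class, with 95% Wilson intervals. Right, median region width with quartiles. KO-only regions (red) had 22.9% at gene ends, below the 28.8 to 34.2% of the other classes shown.

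Single-genotype regions were most frequent among regions of low score. The authors' score of a peak was used only to rank peaks within a list, where 100 is the highest, and a region takes the lower of its ranks in the 2 lists of its genotype. Among regions in both wild-type lists, split by rank into 5 equal groups, 27.5% of the lowest group and 26 of 1728 in the highest were wild-type-only. Among regions in both KO lists, 28.0% of the lowest group and 51 of 1777 in the highest (2.87%) were KO-only. The median of this lower rank was 23.4 for wild-type-only, 25.9 for KO-only and 21.7 for mixed regions, and the lower of 2 ranks is low by construction. It was above 90 for 4 wild-type-only, 7 KO-only and 1 mixed region.

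**Figure D3:**
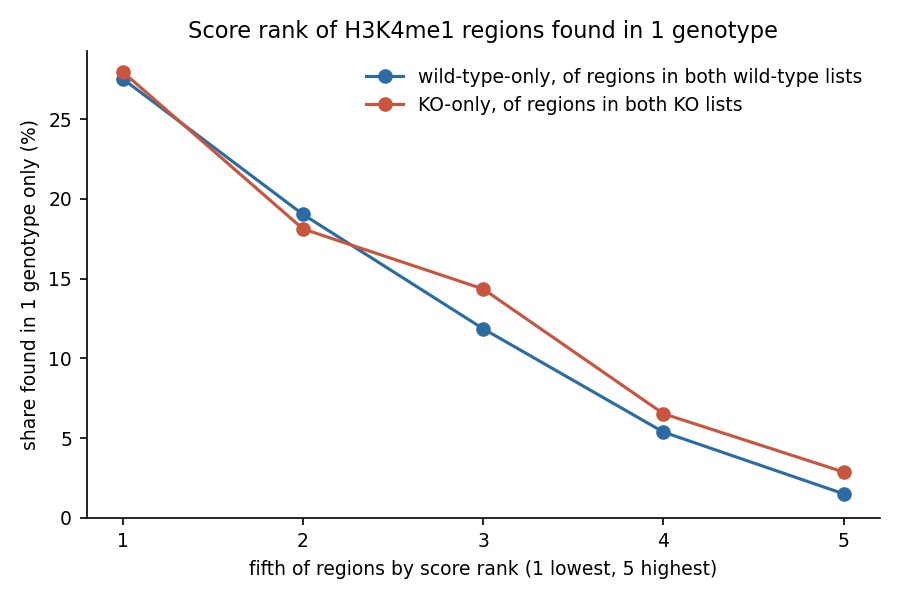
Share of H3K4me1 regions found in 1 genotype only, for 5 equal groups of the regions in both lists of that genotype, ordered by the lower of their 2 score ranks. Both lines fall from 27.5% (wild type, blue) and 28.0% (KO, red) in the lowest group to 26 of 1728 and 51 of 1777 regions in the highest.

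The highest-ranked wild-type-only regions at gene ends, taken by rule, belonged to Lratd2, Sp9, Hydin, Gria3, Zfp978, P2ry2, Vstm2b, Flnc, Osr2, Fam185a, Cldn7 and Elof1. Sp9, a zinc finger transcription factor of limb and forebrain, had a region (chr2:73275735-73281819) of rank 97.0 in wild-type replicate 1 and 90.02 in replicate 2, with no H3K4me2 peak in any ES library. Osr2, a zinc finger factor of mesenchyme and palate, likewise had no H3K4me2 peak over its region (chr15:35293009-35297122), which ranked 86.8 and 75.8. Flnc, a filamin of muscle, had a region over its start (chr6:29431129-29437705) of rank 99.1 and 77.9. Flnc was the single gene of these 12 whose region had H3K4me2 in the wild-type libraries alone. Hydin, a protein of motile cilia, Gria3, a glutamate receptor subunit, and Cldn7, a tight junction claudin, had ranks of 83.6 or higher in wild-type replicate 1. Of the 12 regions, 6 had H3K4me2 in all 4 ES libraries, so H3K4me2 there did not separate the genotypes.

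The corresponding KO-only regions belonged to Serpinb6c, Dapp1, Vrk1, Nabp1, Znrf2, Blnk, Rslcan18, Adamts15, Tdrd12, Il15, Slc35f4 and Tmem121. Serpinb6c, a serine protease inhibitor, had the highest ranks, 97.2 in KO replicate 1 and 94.5 in replicate 2 (chr13:33903564-33906369), and H3K4me2 in all 4 ES libraries. Vrk1, a nuclear kinase, had ranks of 92.4 and 81.8 (chr12:106079967-106084758). Znrf2, a ubiquitin ligase, had ranks of 81.6 and 78.4 (chr6:54817787-54823224). Blnk, an adaptor of B cell receptor signalling, had ranks of 86.0 and 78.3 over its start (chr19:40993894-40996116). Vrk1, Znrf2 and Blnk had H3K4me2 in the 2 KO libraries alone, and no region of the 12 had the reverse. Tdrd12, a tudor protein of the piRNA pathway, ranked 89.9 and 75.9 and had H3K4me2 in KO replicate 1 alone.

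Away from genes, the most extreme region was KO-only. It lay 21701 bp from Plekhg6 (chr6:125403316-125415986), was 12671 bp wide, and ranked 99.9 in KO replicate 1 and 98.8 in KO replicate 2, with 2 peaks in each. Neither wild-type list had a peak in it, and no ES library had H3K4me2 there. In EB, 1 wild-type H3K4me1 library had a peak there and no KO library did. A further KO-only region near Abra (chr15:41881896-41884418), an actin-binding protein of muscle, ranked 94.2 and 98.4 and had H3K4me2 in the 2 KO libraries alone. A region 156016 bp from Prdm1 (chr10:44684574-44687146), a transcription factor of the same family as PRDM16, ranked 92.4 and 92.0 with no H3K4me2. The highest wild-type-only regions outside genes lay near Pkdcc, Tdrp, Trim44 and Lmx1b, and the one near Pkdcc (chr17:83165121-83167872) ranked 95.2 and 87.3.

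The widest wild-type-only regions, at Naf1, Pkp4, Etl4 and Arhgap32, measured 8969, 7945, 7921 and 7920 bp. Their ranks differed widely between the replicates (at Naf1 19.98 and 85.4, at Etl4 85.8 and 9.1). Each overlapped an H3K4me2 peak in all 4 ES libraries. After Plekhg6, the widest KO-only regions lay near Azin1 and Gnpda1 and at Copg1. Several genes held more than 1 region of a class. Tenm3 held 4 wild-type-only regions but also 1 KO-only region among 22, and Auts2 held 3 KO-only and 1 wild-type-only region among 23. Tspan5 and Tbc1d1 each held 3 wild-type-only regions, Gfod1 and Zfp827 each 3 KO-only regions, and none of these had a region of the other direction. Fank1 and Impdh1 had 2 regions each, both wild-type-only at Fank1 and both KO-only at Impdh1.

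H3K4me2 of the same stage was read in 4 libraries that took no part in choosing the regions. KO-only regions had an H3K4me2 peak at 32.8% (wild-type replicate 1), 30.6% (wild-type 2), 51.7% (KO 1) and 55.3% (KO 2). Both KO libraries were above both wild-type libraries, by 21.8 percentage points (31.7 ± 1.54% against 53.5 ± 2.56%, SD, two-sided exact permutation p = 0.333, n = 2, the smallest possible). Wild-type-only regions had a peak at 56.8, 53.8, 52.3 and 58.4% in the same order, and the genotypes overlapped (difference 0.09 points, exact permutation p = 1.00, n = 2). The KO H3K4me2 lists were longer, with 29138 and 32874 peaks against 24600 and 22615, and over mixed regions the KO share was also higher, by 10.5 points. Set against the mixed regions of the same library, the KO-only share differed by -17.2 and -15.8 points in the wild-type libraries and by -4.78 and -5.66 points in the KO libraries. The wild-type-only share, set the same way, differed by 6.76 and 7.34 points in the wild-type libraries and by -4.08 and -2.57 points in the KO libraries. The differences between genotypes were 11.3 and -10.4 points (each exact permutation p = 0.333, n = 2).

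With every H3K4me2 list cut to its 22615 highest scores, both classes separated the genotypes and did so in opposite directions. Wild-type-only regions then had H3K4me2 at 53.1 and 53.8% in the wild-type and 42.3 and 44.1% in the KO libraries. KO-only regions had it at 30.3 and 30.6% in the wild-type and 39.97 and 38.0% in the KO libraries. Mixed regions differed little, with 46.8 and 46.4% against 45.3 and 45.3%. The differences were -10.2, 8.54 and -1.27 points, each with non-overlapping groups and an exact permutation p of 0.333 (n = 2). By its title, H3K4me2 KO replicate 2 belongs to another library series than the other 7 ES libraries of both marks, and without it the KO-only difference with full lists was 19.9 points.

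**Figure D4:**
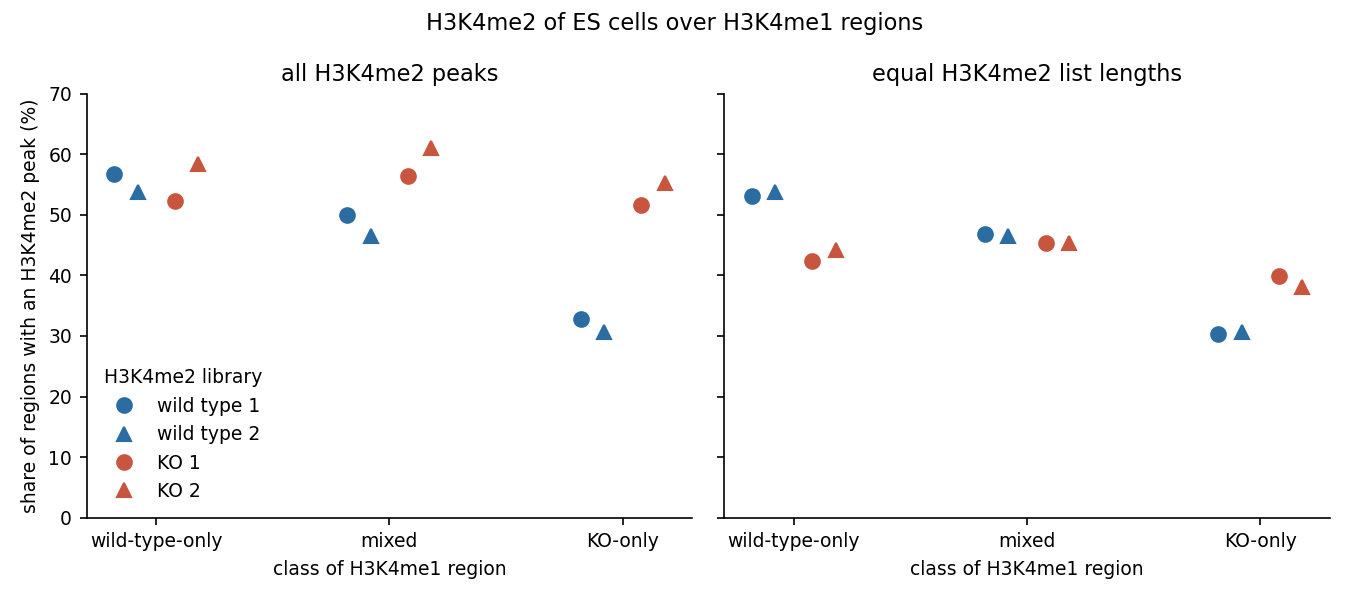
Share of wild-type-only, mixed and KO-only H3K4me1 regions with an H3K4me2 peak, for each H3K4me2 library of ES cells, with all peaks (left) and with equal list lengths (right). On the right, wild-type libraries (blue) lie above KO libraries (red) over wild-type-only regions and below them over KO-only regions.

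Among KO-only regions inside genes, H3K4me2 lay over a mean of 22.8% in the wild-type and 47.8% in the KO libraries, and outside genes over 23.5 and 49.4%. At gene ends the means were 60.6 and 69.9%. Mixed regions, with the same full lists, differed by 14.9 points inside genes, 15.6 points outside them and 0.99 points at gene ends. Regions of all 4 lists differed by 16.4, 14.0 and 1.34 points. A larger difference away from gene ends was therefore common to these classes.

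Some regions were of 1 genotype for both marks. Of 1241 KO-only regions, 160 (12.9%) had H3K4me2 in the 2 KO libraries alone, and 4 (0.322%) had the reverse. Among 1129 wild-type-only regions 45 (3.99%) had wild-type-only H3K4me2 and 35 (3.10%) KO-only H3K4me2. In mixed regions the shares were 1.30% wild-type-only and 6.70% KO-only. In regions of all 4 H3K4me1 lists they were 1.18 and 7.21%. The 160 regions KO-only for both marks lay mostly away from gene ends, with 73 inside genes and 71 outside them. The 45 wild-type-only ones lay at gene ends (17), inside genes (21) and outside (7).

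The genes at such regions, named here after their values were seen, included several developmental regulators. Wild-type-only for both marks at a gene end were Gsc, the goosecoid homeobox gene of the primitive streak organiser (chr12:104473876-104477328, ranks 51.8 and 38.5), Hoxb4 (chr11:96317159-96320814, ranks 22.0 and 38.1), the homeobox gene Tlx3, the POU factor gene Pou4f2 and Cdh3, P-cadherin (chr8:106507568-106513491, ranks 94.8 and 62.8). The Pou4f2 region ranked only 0.3 and 3.9. KO-only for both marks at a gene end were, among others and beside Vrk1, Znrf2 and Blnk, the hormone gene Fgf21 (chr7:45615066-45618134, ranks 65.6 and 52.6), the interferon-induced Oas1a, the collagen cross-linking enzyme Loxl1 and the receptor kinase Kit, whose region ranked 8.73 and 39.997.

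KO-only regions were unevenly spread over chromosomes. Chromosome 12 had the highest share, 77 of 1000 regions (7.70%), and chromosome 8 the next, 108 of 1525 (7.08%). For wild-type-only regions chromosome 17 (74 of 1218, 6.08%) and chromosome 15 (59 of 1001, 5.89%) led. The share of all peaks on a chromosome did not overlap between the genotypes for 10 of the 20 chromosomes 1 to 19 and X (50.0%), higher in KO on 5 and lower on 5.

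On chromosome 12 the KO-only regions lay towards its distal end. From 100 Mb to the end, a boundary chosen after the values were seen, there were 40 KO-only regions among 226 (17.7%) and 7 wild-type-only regions (3.10%). On the rest of chromosome 12, 37 of 774 were KO-only (4.78%), and over the genome without the distal part 1201 of 25914 (4.63%). The distal part held 75 and 56 wild-type peaks and 157 and 126 KO peaks. As a share of each list these were 0.486 and 0.439% against 1.05 and 0.906%. The KO share was 2.11-fold higher, with no overlap (log2 difference 1.08, n = 2), while on the rest of the chromosome the ratio was 1.02-fold. The same 4 lists led to the choice of this part, so a difference there was fixed by the choice. The fold is therefore a description, and no p-value is given for it.

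The difference also appeared in libraries of other samples. H3K4me1 in EB had 0.454 and 0.407% of its peaks in the distal part in the wild-type libraries and 1.05 and 0.918% in the KO libraries, 2.28-fold (log2 difference 1.19, exact permutation p = 0.333, n = 2). H3K4me2 in ES cells had 0.752 and 0.796% against 0.999 and 0.992%, 1.29-fold. H3K4me2 in EB had 0.788 and 0.863% against 0.868 and 0.861%, and the genotypes overlapped. By its title, wild-type replicate 2 of these (0.863%) belongs to another library series than the other H3K4me2 libraries of EB. The distal part held 185 and 180 H3K4me2 peaks in the wild-type ES libraries and 291 and 326 in the KO ES libraries. How often distal regions of other classes had KO-only H3K4me2 was not counted. The next share therefore cannot be called particular to the KO-only class. Of the 40 distal KO-only regions 18 (45.0%) also had KO-only H3K4me2, against 142 of the 1201 elsewhere (11.8%). These included Ttc7b (chr12:100405918-100408876, ranks 98.5 and 87.1), 3 regions at or nearest to Ptprn2, a phosphatase-like protein of secretory granules (the first chr12:116659488-116661259, ranks 93.6 and 86.8), Vrk1, and the region 184003 bp from Sp8, a zinc finger factor of limb outgrowth (chr12:118657146-118662285, ranks 85.4 and 88.6). Gsc, wild-type-only for both marks, also lies in this part, so not all of it moved one way. DNA content was not measured in these lists, and its part in the distal shares was not tested.

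**Figure D5:**
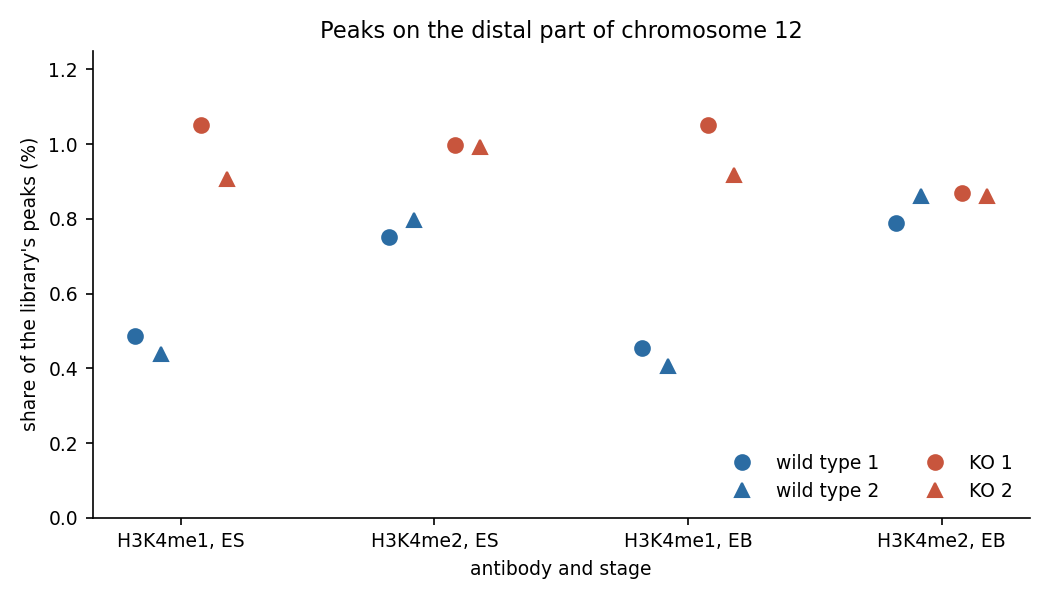
Share of each library's peaks on chromosome 12 from 100 Mb to its end, by antibody and stage (ES, ES cells; EB, embryoid bodies). For H3K4me1 the KO libraries (red) lie at 0.906 to 1.05% and the wild-type libraries (blue) at 0.407 to 0.486%, in ES cells and in embryoid bodies.

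H3K4me1 of EB did not separate the ES classes. Wild-type-only ES regions had an H3K4me1 peak in EB at 18.2 ± 0.626% (wild-type libraries) and 10.5 ± 2.88% (KO libraries; SD, n = 2), and KO-only regions at 18.98 ± 1.31% and 10.96 ± 1.48%. The differences of -7.79 and -8.02 points were like that of mixed regions, -7.56 points. The KO lists of EB were shorter, with 8943 and 5990 peaks against 14082 and 13260. With equal lengths the differences were 0.84, 0.16 and 0.46 points (exact permutation p = 0.667, 1.00 and 0.667, n = 2).

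At the level of genes, a peak within 2500 bp of either gene end in both wild-type and neither KO list was found for 392 of 21887 protein-coding genes (1.79%), and the reverse for 286 (1.31%). The 392 are 12.8% of the 3052 genes marked in both wild-type lists, and the 286 are 10.5% of the 2719 marked in both KO lists. Of 367 genes in 19 lists of pluripotency, lineage, signalling and control genes, 17 were wild-type-only and 7 KO-only, 17 of 96 marked in both wild-type lists and 7 of 78 marked in both KO lists. H3K4me2 lay at 8 of the 17 and 4 of the 7 in all 4 ES libraries. Most of these genes had middle or low ranks, and 2 of the 24, Osr2 and Gata4, kept their class with the higher-scoring 50% of each list.

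Among pluripotency genes, Lin28a, an RNA-binding protein, and Lefty1, a Nodal inhibitor, were wild-type-only, and Dppa4, a chromatin protein of early embryos, was KO-only. They were 2 of 7 genes marked in both wild-type lists and 1 of 5 marked in both KO lists. Over all genes so marked the shares were 12.8 and 10.5%. Lin28a ranked 19.99 and 12.7, Lefty1 3.73 and 29.2, and Dppa4 57.4 and 11.4, so none was strong in both libraries. Lefty1 had no H3K4me2 peak at its gene ends in any ES library. No gene of the primed epiblast, neuroectoderm, blood or Polycomb lists and none of the brown fat genes linked to PRDM16 was in either class. Each of these lists had only 4 or 5 members marked in both lists of a genotype, too few to set 0 apart from the 12.8 and 10.5% of all genes.

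Among lineage genes, Gsc and Osr2 of the mesoderm list were wild-type-only, 2 of 6 marked in both wild-type lists. So were the cardiac factor Gata4 (ranks 69.9 and 92.7, 1 of 4) and the chemokine receptor Cxcr4 of the endoderm list (1 of 7). Over all genes so marked the share was 12.8%. KO-only were the endoderm factors Sox17 (ranks 51.5 and 15.6) and Foxa3 (50.5 and 45.9). The trophoblast genes Tead4 (40.1 and 51.6) and Bmp4 (27.8 and 15.3) were also KO-only. Each pair made 2 of the 6 genes of its list marked in both KO lists, against 10.5% of all genes so marked. Lists this short do not set such counts apart from the all-gene shares. The endoderm list thus held genes of both classes. Tead4 is a transcription factor of the Hippo pathway and Bmp4 a secreted ligand, also in the TGF-beta list beside Lefty1.

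Of 39 Hox genes, which pattern the body axis, 18 and 13 were marked in the wild-type lists and 9 and 9 in the KO lists. Over all genes the shares marked were 23.2 and 20.5% in the wild-type lists and 20.9 and 19.9% in the KO lists. Wild-type-only were 5 of the 10 marked in both wild-type lists, against 12.8% of all genes so marked: Hoxb4, Hoxb7, Hoxb8, Hoxc11 and Hoxd9. Hoxb7 and Hoxb8 share 1 peak, of rank 40.9 and 49.2, so neighbouring Hox genes are not independent counts. The share of 5 in 10 was not tested against that of all genes, and the list is short. None of these 5 genes kept its class with the higher-scoring part of each list, where only Osr2 and Gata4 did. Hoxb13 was KO-only, 1 of the 6 marked in both KO lists (10.5% over all genes), yet its H3K4me2 was found in the wild-type libraries alone. Hoxb4 had wild-type-only H3K4me2 as well, and Hoxd9 had H3K4me2 in all 4.

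Of 23 genes for H3K4 methylation enzymes and cofactors, 7 and 10 were marked in the wild-type lists and 4 and 4 in the KO lists, beside the all-gene shares given for the Hox genes. The list also holds the demethylase genes Kdm1a, Kdm1b, Kdm5a, Kdm5b, Kdm5c and Kdm5d. Of the 5 marked in both wild-type lists 2 were wild-type-only, against 12.8% of all genes, and 5 genes are too few to set the shares apart. Neither of the 2 kept its class with the higher-scoring 50% of each list. Kmt2d, an H3K4 methyltransferase of enhancers (ranks 55.7 and 27.1), and Smyd3 (28.8 and 38.4) were these genes, both with H3K4me2 in all 4 libraries. In signalling lists, the Notch ligand Dll1 (36.3 and 50.8), the Notch-modifying glycosyltransferase Rfng, the Wnt receptor Fzd7 and Prdm10 of the PRDM family were wild-type-only, and the Wnt inhibitor Dkk1 (57.1 and 49.6) was KO-only. In the Wnt list 1 of 12 genes marked in both wild-type lists was wild-type-only, and 1 of 11 marked in both KO lists was KO-only. In the PRDM list 1 of 5 was wild-type-only. The Notch list had 10 genes marked in both wild-type and 7 in both KO lists, with 2 wild-type-only and 0 KO-only. Over all genes marked in the same way the shares were 12.8 and 10.5%.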

How the data were processed

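CUT&RUN libraries of 24 samples in 12 groups of 2 were deposited as peak lists, called per library. Per the submitters' processing notes the reads were handled with Bowtie2, SAMtools 1.5, bedtools, MACS2, deepTools and HOMER 4.10 on mm10, with parameters not given in the sources used here. Each deposited list holds chromosome, start, end, name and a score, the authors' own value per peak, at least 50 in the H3K4me1 lists of ES cells. What the score measures is not stated, so it was used for ranks and thresholds inside each list and nothing else. Start positions were read as counted from 0 and are printed from 1.

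Peaks on chromosomes 1 to 19, X and Y that overlapped by at least 1 bp were merged across the 4 H3K4me1 ES lists in Python 3.11.15 (pandas 2.3.3, scipy 1.17.1). The merging was tested on simulated lists. Genes, their ends and promoters came from RefSeq GRCm38.p6, whose coordinates are those of mm10, and exons and introns were not distinguished. No promoter sequence of chromosome 18 was printed. Libraries were compared with two-sided exact permutation tests over the 6 assignments of 2 and 2. Replicate numbers came from the titles and paired nothing (correlation of deviations 0.01). Named regions were, for each direction, the 12 at gene ends and the 4 outside genes with the highest lower rank, the 4 widest and the 4 genes with most regions, and all list genes in either class. The members, gene lists and comparisons were chosen with earlier results of these data known. Alternatives were equal list lengths, the higher-scoring 50%, scores of at least 100, 50% of the region covered, windows of 1000 and 10000 bp, a replicate block and each library left out.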

Additional observations from a re-analysis of the deposited data

How the results depend on the processing

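The counts of regions and genes moved with the stringency of the lists. With the higher-scoring 50% of each list there were 652 wild-type-only and 725 KO-only regions (mixed choices 345 to 594) and 240 and 176 genes. With scores of at least 100 there were 413 and 449 regions (mixed 224 to 386) and 149 and 94 genes. With a window of 10000 bp there were 437 KO-only genes. With 50% of a region covered the KO-only median width was 2465 bp. Leaving out 1 library at a time lets a single list define a class, so counts rose by construction: 2043 to 4528 wild-type-only and 2146 to 4353 KO-only regions, and 774 to 1373 and 570 to 1022 genes. Median widths were then 1382.5 to 2689.5 bp (wild-type-only), 1280 to 2384 bp (KO-only) and 3313 to 3466 bp (shared), and the KO-only share at gene ends 23.6 to 26.1%. The log2 ratio of peak numbers was -0.014 with scores of at least 100 and ranged from -0.10 to 0.18 with libraries left out, turning to -0.10 without wild-type replicate 2 and -0.013 without KO replicate 1. H3K4me2 over wild-type-only regions differed by -10.2 points and over mixed regions by -1.27 points with equal list lengths. With libraries left out the former ranged from -2.92 (without H3K4me2 KO replicate 2) to 3.10 points, and was -1.42 without wild-type replicate 2. EB differences became 0.84, 0.16 and 0.46 points over wild-type-only, KO-only and mixed regions with equal lengths. The KO-only H3K4me2 difference kept its sign under each alternative, from 19.9 to 23.6 points with libraries left out. The distal chromosome 12 difference ranged from 0.97 to 1.19 (log2) with libraries left out. Of 39 named regions, 37 kept their class with equal lengths and 32 with scores of at least 100. Of 24 list genes, 23 and 2 did, and 11 with the 10000 bp window. With the replicate block, the pairing by number gave the same estimates, 0.039 (log2) for peak number with p = 1.00 and 21.8 points for H3K4me2 over KO-only regions with p = 0.5 (exact permutation of 4 sign changes, n = 2). Read depth is unknown, and 2 libraries a genotype limit every test.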

Other observations

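Beside distal chromosome 12, the 5 Mb windows with the highest share of KO-only regions, among 410 windows with at least 20 regions, lay mostly on chromosome 8. Windows starting at 75, 55, 95, 60 and 65 Mb of chromosome 8 held 9 of 52, 4 of 26, 7 of 46, 8 of 53 and 6 of 44 KO-only regions, and each held at most 2 wild-type-only regions. Chromosome 8 took 5.90 and 5.46% of H3K4me1 peaks in wild-type ES libraries and 6.09 and 5.93% in KO ES libraries. In EB it took 5.29 and 5.16% (wild-type libraries) and 6.92 and 6.19% (KO libraries). For H3K4me1 the KO libraries were above the wild-type libraries at both stages. For H3K4me2 the genotypes overlapped, with 5.23 and 5.09% against 5.19 and 5.48% in ES cells and 4.94 and 4.96% against 5.00 and 4.66% in EB. The windows with the highest wild-type-only share, starting at 20 Mb of chromosome 1 (3 of 20) and 15 Mb of chromosome 19 (5 of 34), also held 2 and 3 KO-only regions.

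PRDM16 peaks of ES cells fell on few regions of any class. The lists of 331 and 191 wild-type peaks and 586 and 499 KO peaks overlapped 3, 1, 4 and 6 of the 1129 wild-type-only regions and 2, 2, 4 and 5 of the 1241 KO-only regions. They overlapped 8, 6, 7 and 14 of 3149 mixed regions and 106, 93, 132 and 135 of all 26140 regions. Regions of all 4 H3K4me1 lists were overlapped more often, at 56, 51, 65 and 59 of 5425. The KO lists of PRDM16 peaks were the longer ones. By their titles, PRDM16 wild-type replicate 2 and KO replicate 1 belong to another library series than the other PRDM16 libraries of ES cells.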
